A study of Mus musculus with 200 samples.

Results

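The 10 genes described here are regulators of the growing limb bud: *Tbx5*, *Tbx4*, *Pitx1*, *Fgf10*, *Fgf8*, *Shh*, *Hand2*, *Grem1*, *Msx1* and *Lmx1b*. They were taken by symbol from the 22033 genes of the deposited tables, and all 10 were present in the F1 and in the N2 tables. The material was single whole embryos of *Mus musculus* at E11.5 (embryonic day 11.5), freed of extra-embryonic tissue and profiled by 3SEQ, a sequencing method that reads the 3′ ends of mRNA. In the F1 generation, 8 embryos had a B6 (C57BL/6J) mother and a Cast (CAST/EiJ) father, written B6 × Cast, and 8 had the reverse parents, written Cast × B6. Each F1 cross held 2 litters, and every F1 embryo carries 1 B6 and 1 Cast allele at each autosomal gene.

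In the N2 generation, which was made by backcross of F1 animals to B6, 89 embryos of 17 litters had a B6 mother and an F1 father, and 65 embryos of 12 litters had an F1 mother and a B6 father. All N2 embryos therefore carry at least 1 B6 allele, and at any gene they are either B6/B6 or B6/Cast. Per the study's methods, every F1 mother was itself a B6 × Cast animal. Somite number, the count of paired body segments and the measure of stage used here, was recorded for 13 of 16 F1 embryos and for 147 of 154 N2 embryos. It ran from 48 to 63 in B6 × Cast, from 41 to 48 in Cast × B6, from 42 to 57 in N2 embryos of B6 mothers and from 43 to 54 in those of F1 mothers. Reads on genes numbered 15703888 to 38234229 per F1 embryo and 245220 to 5370322 per N2 embryo, so the F1 libraries are the deeper ones, and the N2 libraries came from 14 lanes on 2 flowcells.

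A limb bud is started by Fgf10 from the lateral mesenchyme, under Tbx5 in the forelimb and Tbx4 with Pitx1 in the hindlimb. Fgf10 induces Fgf8 in the apical ectodermal ridge, and Shh from the posterior zone of polarizing activity, which Hand2 prepares, keeps the ridge active through the Bmp antagonist Grem1. Msx1 marks mesenchyme that receives Bmp signals, and Lmx1b gives the dorsal side its identity. None of these genes is used by the limb alone: *Shh* is also made by floor plate and notochord, *Fgf8* by the isthmus, the facial primordia and the tail bud, *Tbx5* and *Hand2* by the heart, *Hand2* and *Msx1* by the pharyngeal arches, *Pitx1* by the pituitary and the jaw, and *Lmx1b* by the brain. In a whole embryo these sources are summed, and fewer cells of a type cannot be told apart from less RNA per cell.

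On mm9, the build of the deposited tables, the genes lie on 6 chromosomes (GENCODE annotation of that build). *Shh* is at chr5:28783355-28793641 on the minus strand, *Msx1* at chr5:38211724-38215822 on the minus strand and *Tbx5* at chr5:120284672-120335227 on the plus strand. *Grem1* at chr2:113586321-113598803 and *Lmx1b* at chr2:33416485-33496031 are both on the minus strand. *Fgf10* is at chr13:119458598-119580922 on the plus strand and *Pitx1* at chr13:55926415-55937553 on the minus strand. *Tbx4* is at chr11:85699924-85729599 and *Hand2* at chr8:59799780-59803314, both on the plus strand, and *Fgf8* is at chr19:45811288-45817405 on the minus strand. These are whole gene spans, and the reads counted come mostly from the last exons.

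Promoter sequences of 6 of the 10 genes were taken from RefSeq on GRCm38.p6, a later build than that of the tables, each from 250 bases before to 50 bases after the transcript start. The sequences of *Msx1* and *Lmx1b* are shown because both genes fell with somite number in F1 embryos, and that of *Hand2* because it holds as many CCAAT boxes while the gene did not pass that test. Capitals mark CCAAT on the strand shown or its reverse complement ATTGG on that strand, and each sequence is written 5′ to 3′ along its gene.
*Msx1* promoter, chr5:37824536-37824835, minus strand: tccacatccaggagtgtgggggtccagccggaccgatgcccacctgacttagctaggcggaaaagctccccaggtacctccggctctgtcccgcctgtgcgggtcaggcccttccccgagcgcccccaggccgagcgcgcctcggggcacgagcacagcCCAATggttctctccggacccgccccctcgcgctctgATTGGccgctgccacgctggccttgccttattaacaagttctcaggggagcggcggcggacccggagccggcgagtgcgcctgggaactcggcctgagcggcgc
*Lmx1b* promoter, chr2:33641049-33641348, minus strand: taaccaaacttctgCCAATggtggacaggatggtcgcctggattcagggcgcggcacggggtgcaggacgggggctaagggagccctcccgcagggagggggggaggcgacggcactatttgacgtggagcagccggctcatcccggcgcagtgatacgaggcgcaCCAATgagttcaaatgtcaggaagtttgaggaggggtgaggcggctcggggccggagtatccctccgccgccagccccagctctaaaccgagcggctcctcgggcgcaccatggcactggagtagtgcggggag
*Hand2* promoter, chr8:57320733-57321032, plus strand: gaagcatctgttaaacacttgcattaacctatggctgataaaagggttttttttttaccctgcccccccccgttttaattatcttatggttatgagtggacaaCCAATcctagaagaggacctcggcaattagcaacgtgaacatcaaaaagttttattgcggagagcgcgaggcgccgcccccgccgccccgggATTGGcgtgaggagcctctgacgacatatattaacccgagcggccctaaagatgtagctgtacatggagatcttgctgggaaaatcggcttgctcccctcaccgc

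All 3 hold 2 matches, at 91 and 54 bases before the start in *Msx1*, at 236 and 84 in *Lmx1b* and at 147 and 55 in *Hand2*. Over 32851 RefSeq promoters of the same length, 37.4% held CCAAT on either strand and 11.7% held it 2 or more times. *Grem1* had 1 match, and *Fgf10* and *Tbx4* had 0. Of TATAAA, found in 13.6% of all these promoters, only *Tbx4* had a match among the 6. The matches are positions of letters and not known binding sites.

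Levels are given as RPM, reads scaled to each library's total of reads on genes, which for 3′-end reads are not divided by gene length, so they are compared between embryos and not between genes. Of the genes that start the limb, *Tbx5* had 25.2 ± 5.28 RPM (SD, n = 16) in F1 embryos and 17.9 ± 8.24 RPM (n = 154) in N2 embryos. *Tbx4* had 4.68 ± 0.935 RPM in F1 and 3.02 ± 2.97 RPM in N2 embryos, and 7 N2 embryos had no *Tbx4* read. *Pitx1* had 138 ± 45.5 RPM in F1 and 148 ± 57.8 RPM in N2 embryos. *Tbx5* and *Pitx1* were thus read in every embryo, and *Tbx4* was thin in N2, with a median of 4 reads.

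*Fgf10*, the mesenchymal ligand, had 4.25 ± 2.61 RPM in F1 and 5.99 ± 4.32 RPM in N2 embryos. *Fgf8*, the ligand of the ridge, had 12.2 ± 7.24 RPM in F1 and 12.1 ± 6.54 RPM in N2 embryos, with a median of 23 reads per N2 embryo. *Hand2* had 61.4 ± 8.32 RPM in F1 and 45.1 ± 26.2 RPM in N2 embryos. *Msx1* was deeply read in both, at 421 ± 56.7 RPM in F1 and 415 ± 119 RPM in N2 embryos.

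*Shh*, *Grem1* and *Lmx1b* sat near the limit of detection. *Shh* had 1.41 ± 0.778 RPM in F1 embryos, from 13 to 82 reads each, and 4.66 ± 7.56 RPM in N2 embryos, of which 33 had no *Shh* read. *Grem1* had 1.11 ± 0.474 RPM (0.290 to 2.46) in F1 and 0.612 ± 0.642 RPM in N2 embryos, with 53 of 154 N2 embryos without a read. *Lmx1b* had 2.14 ± 0.715 RPM in F1 and 0.318 ± 0.371 RPM in N2 embryos, with 77 of 154 without a read. *Grem1* and *Lmx1b* therefore fell under the minimum mean of 1 RPM in N2 and were left out of the N2 expression tests. In the alternative without that minimum their N2 somite slopes were 0.0057 and 0.0034 log2 units per somite (edgeR, adjusted p = 0.98 and 1.00). F1 and N2 libraries were sequenced in different runs, and the levels of the generations were not tested against each other.

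The first comparison asked which genes changed with developmental stage among F1 embryos. *Fgf8*, *Msx1* and *Lmx1b* fell with somite number within cross, and the other 7 genes did not pass the test. In litter 1 of Cast × B6, *Fgf8* had 24.6 and 25.0 RPM in the embryos of 41 somites, 20.8 RPM in that of 43 somites and 23.9 RPM in the embryo without a somite number. In litter 2 of Cast × B6, of 46 to 48 somites, the 4 embryos had 10.4, 10.9, 10.7 and 11.0 RPM. In litter 5 of B6 × Cast, of 48 to 50 somites, the 5 embryos had 9.12, 8.24, 8.91, 8.94 and 10.9 RPM, and in litter 3 the embryo of 63 somites had 5.37, that of 58 somites 3.52 and the one without a number 3.25 RPM. The youngest and the oldest litter did not overlap with any other litter, while litter 2 and the litter of 48 to 50 somites overlapped.

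**Figure D1:**
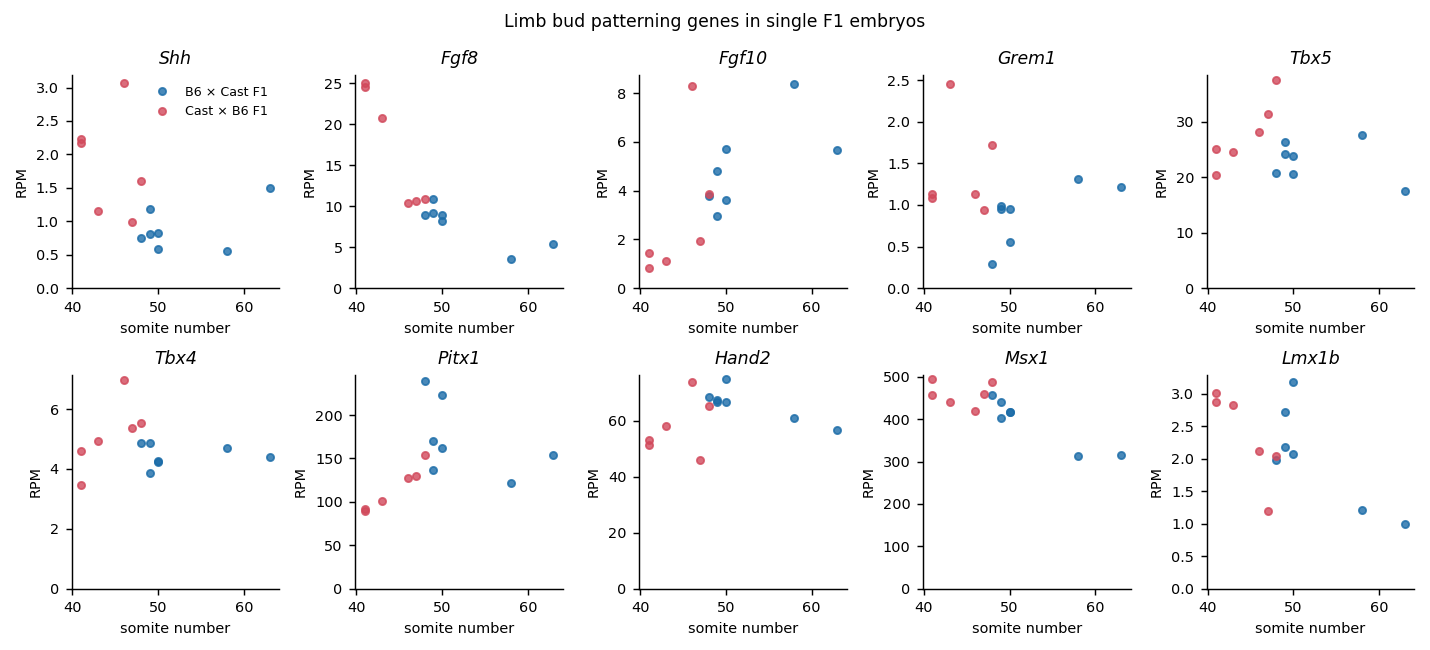
RPM of each of the 10 genes (vertical axis, linear, from 0) against somite number (horizontal axis) in the 13 F1 embryos with a somite number; each point is 1 embryo, blue for B6 × Cast and red for Cast × B6. *Fgf8* steps down from 20.8 to 25.0 RPM at 41 to 43 somites to 3.52 and 5.37 RPM at 58 and 63 somites, *Msx1* is lowest in the 2 oldest embryos, and *Lmx1b* is low there, at 0.991 and 1.22 RPM, and in 1 embryo of 47 somites, at 1.20 RPM.

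By edgeR's quasi-likelihood test with cross as a term, 3 of 10 genes were called at an adjusted p under 0.05 and all 3 fell, where 2.85% of the 12707 genes tested fell and 7.16% were called in either direction. The slope of *Fgf8* was −0.11 ± 0.022 (SE) log2 units per somite (adjusted p = 0.011), which over 10 somites is a level of 0.462 of the start. It remained called without each of the 13 embryos in turn, with slopes between −0.19 and −0.10. Without litter 3, that of 58 and 63 somites, its slope was −0.20 (adjusted p = 0.0032), where 20.4% of 12614 genes were called.

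*Lmx1b* had 0.991, 1.14 and 1.22 RPM in the 3 embryos of litter 3, against 1.97 to 3.18 RPM in litter 5, 1.94 to 3.02 RPM in litter 1 and 1.20 to 2.71 RPM in litter 2. Litter 3 was thus lowest, and overlapped only with litter 2 through a single embryo of 47 somites. Its slope was −0.11 ± 0.021 log2 units per somite (adjusted p = 0.0074), called without each embryo in turn. It rested on 23 to 114 reads per embryo, and without litter 3 the slope was −0.12 but the adjusted p 0.071.

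*Msx1* had 314, 317 and 327 RPM in the embryos of litter 3, and 402 to 496 RPM in the 13 embryos of the other litters, without overlap. The slope was −0.043 ± 0.010 log2 units per somite (adjusted p = 0.024), 0.744 of the start over 10 somites. The call was lost when any 1 of 8 of the 13 embryos was left out, namely 3-1, 3-4, 5-4, 5-5, 5-6 and 5-7 of B6 × Cast and 1-2 and 1-3 of Cast × B6 (litter and embryo number), with an adjusted p of at most 0.096. Without litter 3 the slope was −0.021 (adjusted p = 0.50).

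The other genes had no slope past the threshold in F1. *Fgf10* had the widest interval, with a slope of 0.093 (95% interval −0.0022 to 0.187, adjusted p = 0.25). Its 2 youngest embryos, of 41 somites, had 1.43 and 0.841 RPM and those of 58 and 63 somites 8.38 and 5.66 RPM, but a litter mate of the youngest had 6.31 RPM and 1 embryo of 46 somites 8.30 RPM. Without litter 3 the slope of *Fgf10* was 0.30 (adjusted p = 0.047). The slopes of *Shh* (0.0082), *Tbx4* (0.0030), *Tbx5* (−0.0031), *Pitx1* (−0.019), *Hand2* (−0.023) and *Grem1* (0.037) had adjusted p between 0.24 and 0.93. *Pitx1* in litter 5, at 136 to 239 RPM, was above litter 1, at 79.7 to 101 RPM, while litter 3, the oldest, had 101 to 154 RPM. In F1 embryos stage and litter moved together and their parts cannot be told apart. Litters 1, 3 and 5 were sequenced in the same runs, and litter 2 differed in 1 of its runs.

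The same question was put to the 147 N2 embryos with a somite number, within sequencing lane and mother genotype. *Fgf8*, *Shh* and *Msx1* fell with somite number, and none of the genes rose. *Fgf8* had a median of 15.4 RPM (3.15 to 40.2) in the 21 embryos of at most 45 somites, 13.5 RPM (1.20 to 40.0) in the 45 embryos of 46 to 48, 9.96 RPM (2.05 to 32.9) in the 53 embryos of 49 to 51 and 7.26 RPM (3.42 to 17.1) in the 28 embryos of 52 somites or more. The ranges overlapped widely between neighbouring stages, while the median fell at every step.

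In edgeR's test, 3 of the 8 genes that reached the minimum were called, all falling, where 3.95% of 12732 genes fell and 9.17% were called in either direction. *Shh*, 1 of the 3, reached the minimum only through lanes K to N. Without lanes K to N, 2 of 7 tested genes were called, *Fgf8* and *Msx1*, where 1240 of 12122 genes were. *Fgf8* fell by 0.14 log2 units per somite (SE 0.025, adjusted p = 8.05e-06), to 0.379 of the start over 10 somites. Fitted lane by lane, its slope was below 0 in 13 of 14 lanes, and the call remained without each lane in turn, with slopes between −0.16 and −0.12. When litter was added to lane, so that only litter mates on the same lane are compared, *Fgf8* alone of the 8 genes was still called, with a slope of −0.15 (adjusted p = 0.019), where 2.07% of genes were.

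**Figure D2:**
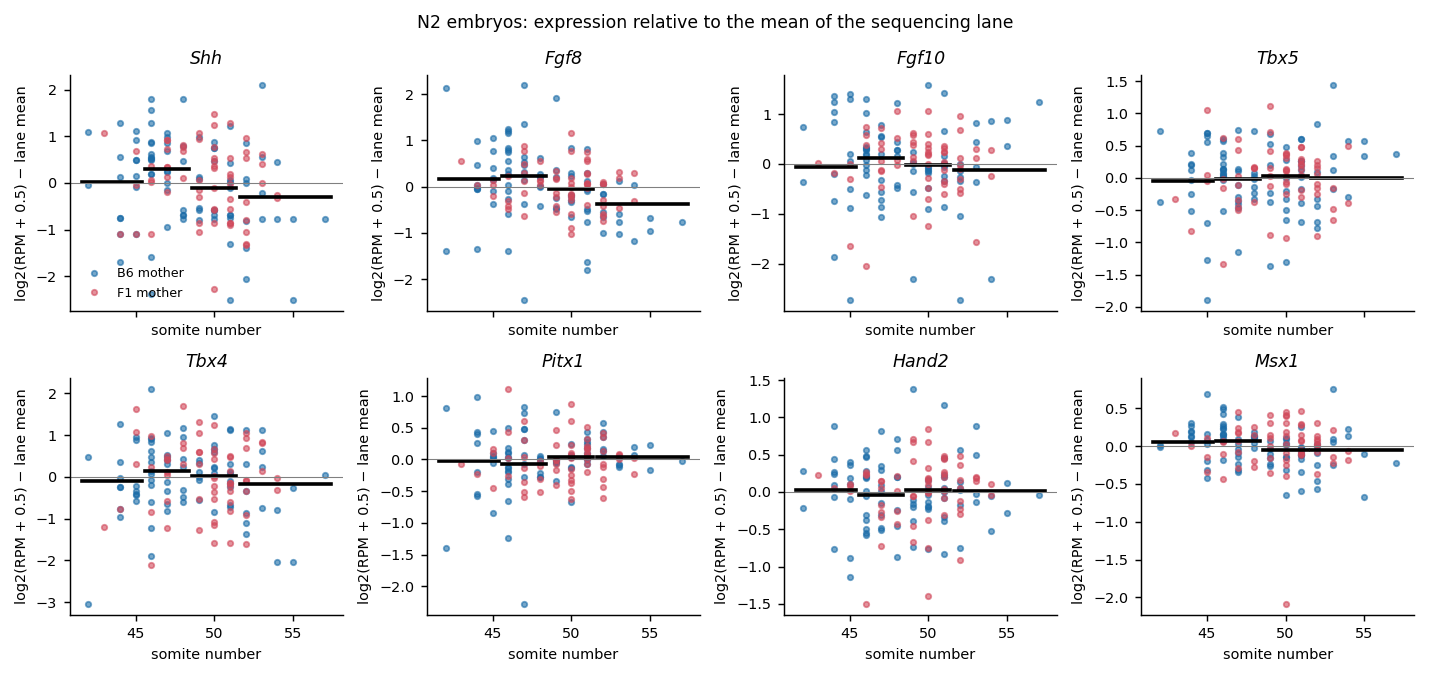
Level of the 8 tested genes in the 147 N2 embryos, as log2(RPM + 0.5) minus the mean of the embryo's lane (vertical axis), against somite number (horizontal axis). Each point is 1 embryo, blue for a B6 mother and red for an F1 mother, and black bars are means of embryos of at most 45, 46 to 48, 49 to 51 and at least 52 somites; for *Fgf8* these means are 0.16, 0.23, −0.052 and −0.39.

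*Msx1* had a median of 475 RPM (266 to 654) in embryos of at most 45 somites, 456 RPM (194 to 671) at 46 to 48, 394 RPM (62.4 to 635) at 49 to 51 and 399 RPM (93.8 to 494) at 52 or more. Relative to the lane mean the first 2 stages lay 0.051 and 0.072 log2 units above and the last 2 lay 0.052 and 0.055 below. The slope was −0.045 ± 0.010 log2 units per somite (adjusted p = 0.00093), 0.730 of the start over 10 somites, below 0 in 11 of 14 lanes and called without each lane in turn. With litter added to lane it was −0.030 (adjusted p = 0.45), and on the second flowcell alone −0.046 (adjusted p = 0.15).

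*Shh* had medians of 1.32, 1.26, 0.931 and 0.852 RPM over the same 4 stages, with at least 1 embryo without a read in each. Its slope was −0.17 ± 0.043 log2 units per somite (adjusted p = 0.0030), 0.304 of the start over 10 somites, and below 0 in 12 of 14 lanes. The call was lost without lane K, where the slope was −0.12 (adjusted p = 0.13), and with litter added to lane, where it was −0.17 (adjusted p = 0.22). Lanes K to N held most of the *Shh* reads, as described below, and without them *Shh* was under the minimum.

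The remaining tested genes had slopes near 0. Those of *Tbx5* (0.00056, 95% interval −0.038 to 0.039), *Hand2* (−0.0023, −0.034 to 0.029), *Pitx1* (0.011, −0.023 to 0.044), *Tbx4* (−0.0090, −0.078 to 0.060) and *Fgf10* (−0.037, −0.093 to 0.019) had adjusted p between 0.49 and 0.99. Over all 12732 genes the median slope was −0.0038. None of these 5 intervals contains the slope of *Fgf8*.

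**Figure D3:**
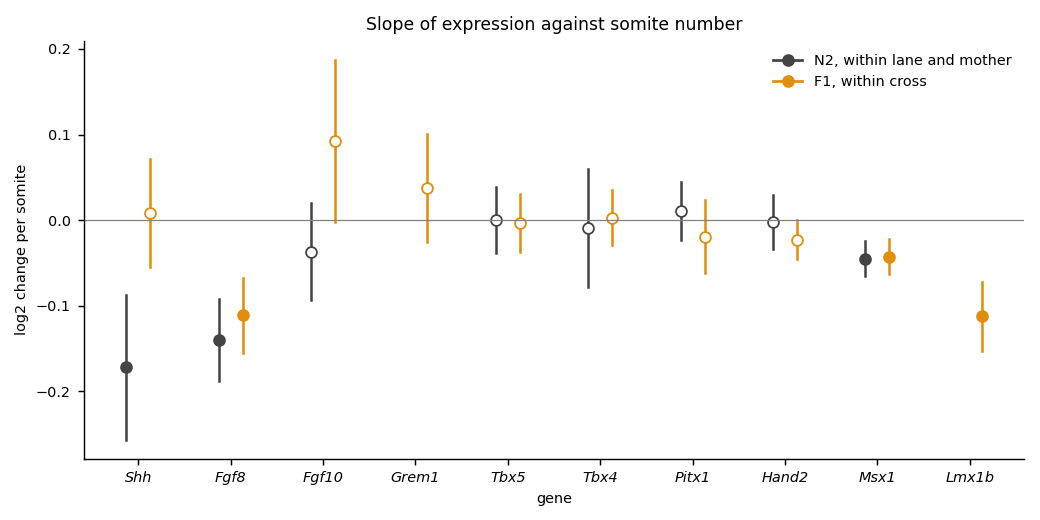
Slope of expression against somite number, in log2 units per somite (vertical axis), for each gene (horizontal axis), with bars of 95% intervals. Grey points are the 147 N2 embryos within lane and mother and orange points the 13 F1 embryos within cross, and filled points were called at an adjusted p under 0.05; *Fgf8* and *Msx1* are filled and negative in both, *Shh* in N2 and *Lmx1b* in F1, and *Grem1* and *Lmx1b* have no N2 point.

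The slopes of *Fgf8* in the 2 generations, −0.14 in N2 and −0.11 in F1, lay within each other's intervals, as did those of *Msx1* at −0.045 and −0.043. For *Shh* the intervals of N2 (−0.256 to −0.087) and F1 (−0.055 to 0.071) did not overlap. Both slopes moved when 1 embryo or lane was left out: without the F1 embryo of 63 somites the F1 slope of *Shh* was −0.072 (SE 0.044), and without lane K the N2 slope was −0.12 (SE 0.051). The difference between generations was not tested in 1 model, since runs and depths differ. Within N2, *Fgf8* fell by 0.17 log2 units per somite among embryos of B6 mothers (adjusted p = 0.00035), where 4.89% of genes were called, and its slope was −0.077 among those of F1 mothers (adjusted p = 0.28). Among embryos of F1 mothers 0 of 8 genes were called by edgeR, where 0.974% of all genes were. An unadjusted p under 0.05 was reached by 2 of the 8, *Fgf8* and *Shh*, and by 1836 of 12735 genes. The interaction of somite number with mother passed the threshold for 0 of the 8 genes in edgeR, where 1 of 12732 genes was called. An unadjusted p under 0.05 was reached by 0 of the 8 and by 761 of the 12732. For *Fgf8* the difference of slopes was 0.094 ± 0.054 (adjusted p = 0.88).

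Other genes of the same pathways were counted for the same N2 slopes, to be read against 9.17% of all genes called in either direction and 3.95% falling. Of 10 tested genes of the Shh pathway 0 rose and 0 fell in edgeR (median slope 0.012, against −0.0038 over all genes), and *Ptch1* and *Gli1*, its transcriptional targets, had slopes of 0.040 (adjusted p = 0.47) and 0.013 (adjusted p = 0.63). Of 17 tested genes of Fgf signalling and the apical ridge 1 rose and 2 fell (median −0.014): the feedback inhibitor *Spry4* rose by 0.084 (adjusted p = 0.048), the ligand *Fgf17* fell by 0.095 (adjusted p = 0.024) and the Fgf target *Etv4* fell by 0.059 (adjusted p = 0.023). Of 16 genes of Bmp signalling 2 rose and 0 fell (median −0.020), namely *Gdf5*, a ligand of joint formation, with a slope of 0.19 (adjusted p = 4.59e-09), and the antagonist *Nog* with 0.11 (adjusted p = 0.024). Of 24 genes of limb mesenchyme and axes 0 rose and 3 fell (median −0.017): the mesenchymal factor *Prrx2* by 0.055, *Tbx2* by 0.046 and *Sall4* by 0.16 log2 units per somite (adjusted p = 0.0011, 0.012 and 0.0066). Of 8 tested limb *Hox* genes 0 rose and 0 fell (median −0.024).

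In F1 embryos, where 2.85% of all genes fell and 7.16% were called in either direction, 2 of 11 genes of the Shh pathway fell and 0 rose (median −0.0062, against 0.0034 over all genes). *Ptch1* was 1 of them, with a slope of −0.075 (adjusted p = 0.017), where its N2 slope was above 0, and *Sufu* the other. Of 18 Fgf genes 2 fell, *Etv5* and *Dlx5*, of 24 mesenchyme genes 6 fell, *Lhx2*, *Lhx9*, *Tbx3*, *Sall1*, *Sall4* and *Irx3*, of 16 Bmp genes 0 and of 8 *Hox* genes 0 were called, and none of these lists had a rising call. *Sall4*, a zinc finger factor of early progenitors, was thus the mesenchyme gene that fell in both generations.

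Markers of other tissues that use these genes were counted in the same way, beside the same shares of all genes, 9.17% called in N2 and 7.16% in F1. In N2 the heart genes had 1 call of 6 (*Myh6*, −0.082), the pharyngeal arch genes 1 of 5 (*Hand1*, −0.16) and the pituitary genes 1 of 2 tested (*Pomc*, −0.056), all falling, and floor plate and notochord, isthmus, sympathetic and serotonergic neurons and lung had 0. In F1 the heart gene *Myl7* and the isthmus gene *Wnt1* fell and the lung gene *Sftpc* rose. The summed level of the 5 isthmus genes ran from 25.5 to 48.9 RPM in F1 and from 8.80 to 63.1 RPM in N2 embryos, and that of the 6 limb mesenchyme genes from 411 to 651 RPM and from 282 to 824 RPM. Their part in the fall of *Fgf8* was not tested.

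Several of the N2 levels differed between sequencing lanes. In the 45 embryos of lanes K to N *Shh* had 13.7 ± 8.70 RPM (1.27 to 34.5, median 12.5), and in the 109 embryos of lanes A to J 0.915 ± 1.31 RPM (0 to 7.97, median 0.542). The lanes were grouped after their values had been seen, so this is a description without a test. Lanes K to N held embryos of both kinds of mothers, with a somite range of 42 to 53 against 43 to 57 in the other lanes, and belonged to the second flowcell, while lanes H to J of that flowcell had lane means of 0.382, 0.561 and 3.41 RPM.

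**Figure D4:**
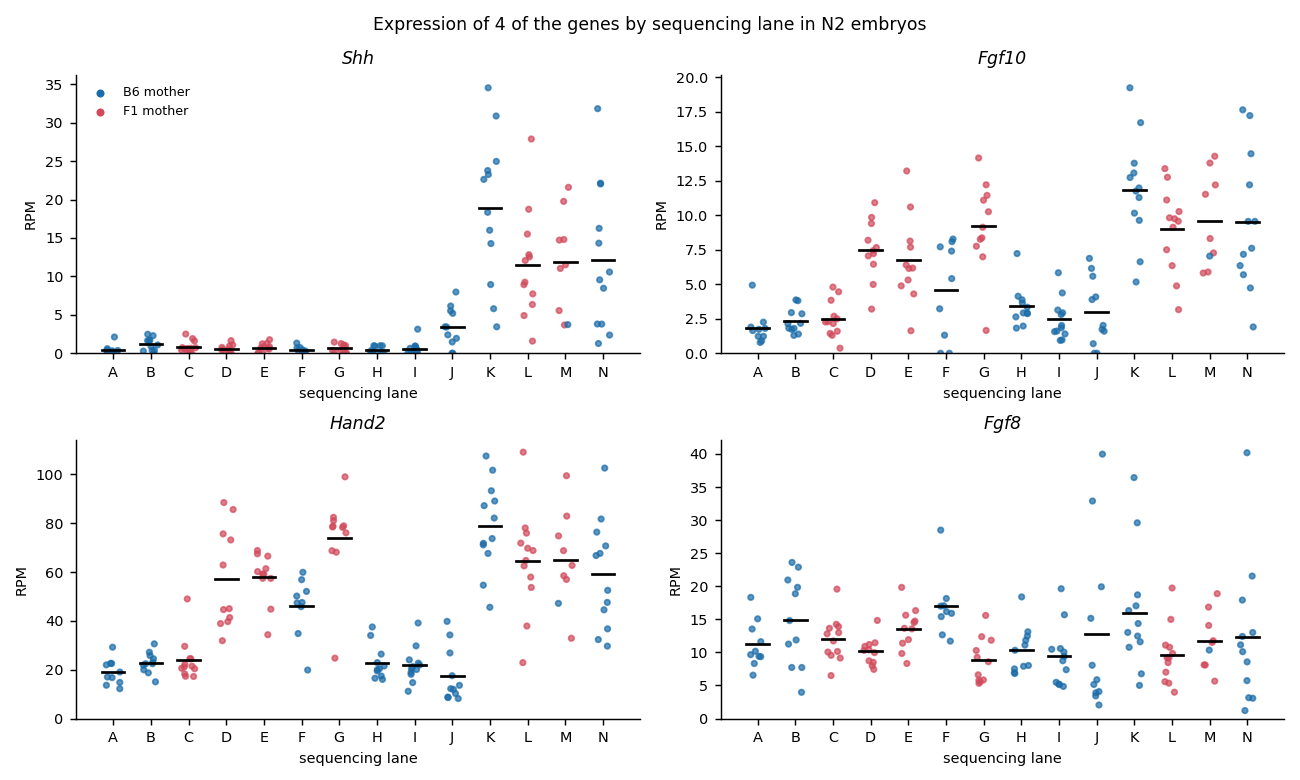
RPM of *Shh*, *Fgf10*, *Hand2* and *Fgf8* (vertical axes, linear, from 0) in the 154 N2 embryos by sequencing lane, A to N (horizontal axes); each point is 1 embryo, blue for a B6 mother and red for an F1 mother, and bars are lane means. *Shh* is at lane means of 11.5 to 18.9 RPM in lanes K to N and at most 3.41 RPM elsewhere, while lane means of *Fgf8* lie between 8.82 and 16.9 RPM.

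Other genes differed between these lanes as well. The difference was not counted over all genes, so it cannot be called particular to *Shh* or to the genes named here. Over 12722 genes a median of 54.2% of the variance of log2(RPM + 0.5) lay between lanes, and 55.8% between litters. Of the floor plate and notochord genes, *Foxa2* had 2.72 ± 2.15 RPM in lanes K to N and 0.358 ± 1.04 RPM in lanes A to J, *Foxa1* 1.58 ± 1.45 and 0.104 ± 0.332 RPM, and *T* 2.35 ± 1.44 and 0.162 ± 0.317 RPM. *Nkx2-2* moved the other way, at 2.73 ± 1.72 and 7.61 ± 3.87 RPM, and *Nkx2-9* was at 0.494 ± 0.528 and 0.443 ± 0.630 RPM. The means of 2 targets of Shh were lower where *Shh* was higher, with ranges that overlapped. *Ptch1* had 2.17 ± 1.96 RPM in lanes K to N and 3.49 ± 1.75 RPM in lanes A to J, and *Gli1* 51.0 ± 11.3 and 61.1 ± 14.9 RPM. The part of the lane in these levels was not tested.

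Among the other limb genes, *Hand2* (66.9 ± 21.2 against 36.0 ± 22.6 RPM), *Fgf10* (9.99 ± 3.95 against 4.33 ± 3.27 RPM), *Tbx4* (5.82 ± 3.90 against 1.86 ± 1.31 RPM) and *Tbx5* (24.2 ± 6.86 against 15.4 ± 7.37 RPM) were also higher in lanes K to N, and *Msx1* was lower (349 ± 81.6 against 442 ± 122 RPM). *Fgf8* (12.5 ± 7.90 against 11.9 ± 5.92 RPM) and *Pitx1* (149 ± 53.8 against 148 ± 59.6 RPM) had similar means in both sets of lanes. *Msx1* was lowest in lane J, at 157 ± 50.3 RPM (n = 11), and *Pitx1* was highest there, at 292 ± 37.6 RPM. Lane J held embryos of B6 mothers only. Of the variance of log2(RPM + 0.5), 77.1% lay between lanes for *Shh*, 75.4% for *Hand2*, 70.2% for *Msx1* and 56.5% for *Fgf10*. The share was 49.9% for *Pitx1*, 48.1% for *Tbx5*, 41.4% for *Tbx4* and 15.4% for *Fgf8*, where the median over 12722 genes was 54.2%. In the same order, the shares between litters were 69.8%, 72.2%, 64.8%, 60.9%, 55.7%, 48.5%, 49.0% and 38.4%, with a median of 55.8% over all genes. The shares of lane and litter overlap and were not separated.

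The genotype of the mother was compared next, F1 against B6, with the counts of each litter summed because litter mates share a mother. *Hand2* litters of B6 mothers had 9.84 to 91.8 RPM (median 24.0) and litters of F1 mothers 19.3 to 84.8 RPM (median 57.5), so the medians differed while the ranges overlapped almost entirely. *Fgf10* litters had 0.820 to 14.1 RPM (median 2.96) with B6 mothers and 1.57 to 10.1 RPM (median 7.57) with F1 mothers. *Pitx1* litters had 92.6 to 345 RPM (median 164) with B6 mothers and 86.1 to 169 RPM (median 132) with F1 mothers.

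By edgeR on litter sums 0 of 8 genes were called, where 0% of 12745 genes were. An unadjusted p under 0.05 was reached by 2038 of the 12745 genes and by 3 of the 8. These were *Hand2*, 0.73 ± 0.23 log2 units higher with F1 mothers (adjusted p = 0.11), *Fgf10*, 0.69 ± 0.30 higher (adjusted p = 0.25), and *Pitx1* with −0.44 ± 0.17 (adjusted p = 0.19). DESeq2 on the same sums called *Hand2* (0.75, adjusted p = 0.044), where it called 3.71% of genes. A limma voom fit took embryos as units and litter as a random block, with flowcell and somite number as terms. It called *Shh* (1.33, adjusted p = 0.027), *Fgf10* (0.96, adjusted p = 0.033) and *Hand2* (0.65, adjusted p = 0.025), where 10.0% of genes were called. For *Shh* the direction was not stable. The edgeR test on litter sums, which had no flowcell term, gave 0.29 (adjusted p = 0.95), and without lanes K to N −0.51 (adjusted p = 0.49). On the second flowcell alone it gave 1.66 (adjusted p = 0.13). The median litter had 1.64 RPM with B6 and 0.791 RPM with F1 mothers. Without lanes K to N, edgeR on litter sums called *Fgf10* (1.21, adjusted p = 0.023) and *Hand2* (1.12, adjusted p = 0.021), where 9.69% of genes were called. Of the 14 lanes 8 held only B6 mothers, 5 only F1 mothers and 1 both, so mother and lane cannot be told apart.

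The effect of an embryo's own genotype was then compared, B6/Cast against B6/B6 at the gene itself. *Msx1* had 389 ± 118 RPM in 79 heterozygous embryos (62.4 to 654, median 396) and 442 ± 116 RPM in 75 homozygous ones (125 to 671, median 456). *Fgf8* had 11.8 ± 7.41 RPM in 71 heterozygous embryos (median 10.1) and 12.3 ± 5.72 RPM in 83 homozygous ones (median 11.1). The ranges of the genotypes overlapped for every gene. Lane, mother, somite number and 15 principal components were regressed out of log2(RPM + 0.5). The rank-sum test then called 0 of 8 genes, where 31.2% of 12732 genes were called. An unadjusted p under 0.05 was reached by 1 of the 8, *Msx1*, and by 5030 of the 12732.

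The difference of heterozygous from homozygous embryos was −0.046 ± 0.024 log2 units for *Msx1* (adjusted p = 0.086) and −0.11 ± 0.057 for *Fgf8* (adjusted p = 0.15). Which side of the threshold they fell on depended on the covariates. With 30 components *Fgf8* was called (−0.16, adjusted p = 0.0028), where 28.7% of genes were, and with none *Msx1* was (−0.13, adjusted p = 0.035), where 23.0% of genes were. Without lanes K to N both were called, *Fgf8* with −0.20 (adjusted p = 0.0049) and *Msx1* with −0.062 (adjusted p = 0.026), where 28.9% of genes were. For *Shh* (0.011), *Fgf10* (0.022), *Tbx4* (−0.11), *Tbx5* (−0.075), *Pitx1* (−0.037) and *Hand2* (−0.0041) the adjusted p ran from 0.22 to 0.99.

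Allele-specific expression (ASE) was read from allele votes, the share of a read credited to B6 or Cast by the SNPs it covers, and is given as BAF, the B6 allele fraction, with a 95% exact binomial interval that covers counting error only. *Pitx1*, with 58174 reads in F1, had 0 votes there, *Grem1* had 2 and *Shh* 9, of which 6 were B6. In heterozygous N2 embryos *Pitx1* and *Grem1* had 0 votes and *Shh* 18, of which 4 were B6 (BAF 0.222, 0.064 to 0.476), and no ASE test was made of these 3 genes, which lacked the minimum of 20 votes per cross. *Msx1* had 141454 votes in F1 and 65289 in heterozygous N2 embryos. In B6/B6 embryos, where no Cast vote is due, Cast votes were 50.77 of 66484 for *Msx1*, 1.67 of 1079 for *Fgf8*, 5 of 229 for *Fgf10*, 1 of 486 for *Tbx5* and 0 of 161 and 248 for *Tbx4* and *Hand2*.

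*Tbx5* leaned to the B6 allele, with a pooled BAF of 0.554 (0.530 to 0.577) over 1780 votes in F1 and 0.555 (0.499 to 0.609) over 330 votes in N2 embryos. Per embryo it ran from 0.505 to 0.683 (median 0.555) in B6 × Cast and from 0.495 to 0.696 (median 0.522) in Cast × B6, so that 15 of 16 F1 embryos lay above 0.5. *Fgf10* leaned to Cast in F1, with 0.407 (0.345 to 0.472) over 243 votes, and was at 0.468 (0.401 to 0.536) in N2. *Tbx4* had 0.446 (0.405 to 0.487) and *Hand2* 0.463 (0.439 to 0.487) in F1, and 0.463 and 0.473 in N2, with intervals there that contain 0.5.

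*Fgf8* had 0.506 (0.483 to 0.528) in F1 and 0.463 (0.429 to 0.497) in N2 embryos. The N2 value leaned to Cast, while the *Fgf8* level was lower in B6/Cast than in B6/B6 embryos, which goes the other way. Neither was called in the main tests. *Msx1* had 0.497 (0.4945 to 0.4997) in F1 and 0.516 (0.512 to 0.520) in N2 embryos, intervals that do not overlap but leave out the spread between embryos. Its BAF per embryo ran from 0.477 to 0.516 in F1. In N2 it ran from 0.378 to 0.688 under B6 mothers and from 0.475 to 0.551 under F1 mothers. These ranges include counting error, and N2 embryos had as few as 23 *Msx1* reads. *Lmx1b* had 89 votes in F1, of which 44 were B6.

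**Figure D5:**
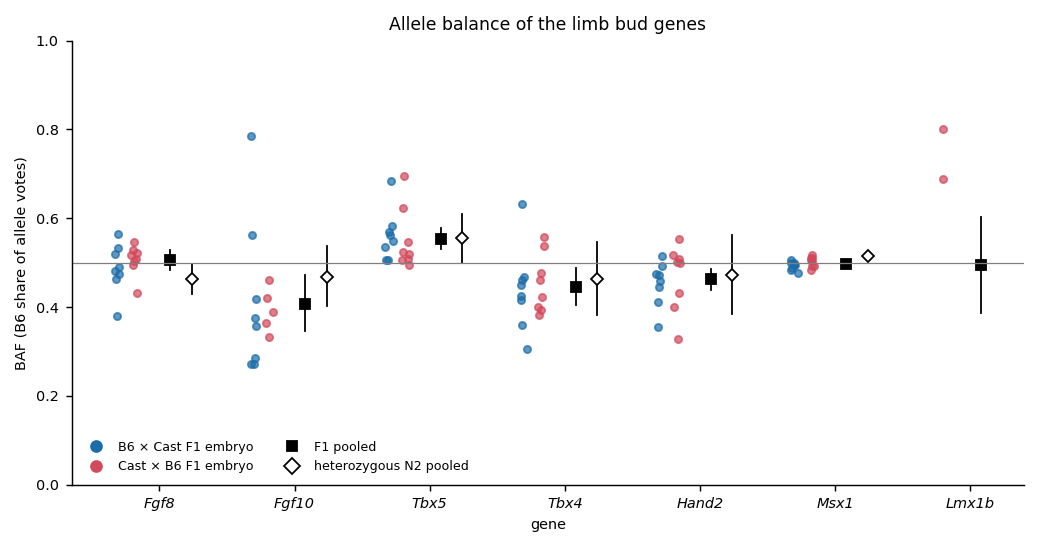
BAF of the 7 genes with allele votes enough to plot (vertical axis, 0 to 1, with a line at 0.5; genes on the horizontal axis). Coloured points are single F1 embryos with at least 10 votes, blue for B6 × Cast and red for Cast × B6, black squares the pooled F1 value and open diamonds the pooled heterozygous N2 value with 95% exact binomial intervals; *Tbx5* sits above the line at 0.554 and 0.555, and *Fgf10* below it at 0.407 in F1.

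Over F1 and heterozygous N2 embryos together, the paired test of the study's methods called 0 of 6 genes, where 19.1% of 9084 genes were called. A call needed a p under 0.01 after Bonferroni adjustment and a combined BAF below 0.45 or above 0.55. Unadjusted, 3 of the 6 had a p under 0.05, *Msx1*, *Fgf8* and *Tbx5*, where 5245 of the 9084 genes did. Their adjusted p were 0.25, 1 and 1 and their combined BAF 0.503, 0.492 and 0.554. In the 16 F1 embryos alone, an exact two-sided sign-flip permutation of BAF minus 0.5 called *Tbx5* with an adjusted p of 0.00028, where 29.3% of 10611 genes were called. By the same test *Hand2* (adjusted p = 0.038), *Tbx4* (adjusted p = 0.041) and *Fgf10* (adjusted p = 0.091) stayed short of the threshold of 0.01.

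The crosses were compared for parent-of-origin effects, in which the higher allele would turn over with the direction of the cross. By the binomial tests 0 of 7 genes were called, where 0.405% of 11598 genes were. An exact permutation of BAF between crosses called 0 of 7, where 0 of 10611 genes were called. With so few embryos per cross, its smallest possible p passes the adjusted threshold only if many genes share it. Its adjusted calls therefore cannot decide the question, and no conclusion is drawn from them. Unadjusted, 0 of the 7 had a p under 0.05, where 1251 of the 10611 did. *Lmx1b* had the widest gap, with a BAF of 0.324 (0.180 to 0.498) over 37 votes in B6 × Cast and 0.615 (0.470 to 0.747) over 52 votes in Cast × B6 (exact permutation, adjusted p = 0.44). At the minimum of 20 votes per embryo BAF against somite number was tested for *Msx1* alone, over 75 heterozygous N2 embryos, and was not called (Spearman test, adjusted p = 0.83; 0 of 1 also unadjusted), where 0.299% of 3342 genes were. By mother the *Msx1* values went opposite ways, with a higher BAF at later stages under B6 mothers (unadjusted p = 0.026, adjusted p = 0.29) and a lower one under F1 mothers (unadjusted p = 0.055, adjusted p = 0.52). Neither was called, and the difference between mothers was not tested. With 10 votes per embryo *Fgf8* could be tested too and was not called (adjusted p = 0.74).

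Likeness between embryos was measured over the 147 N2 embryos by Spearman's rho after lane, mother and somite number had been regressed out, as a description without a test, since the embryos share lanes and each library its depth. Among 9762 genes the 2 most like *Fgf8* were *Fscn1* (0.63) and *Lypla2* (0.61), those most like *Pitx1* were *Hdac5* (0.76) and *Crtc1* (0.73), and those most like *Tbx5* were *Nucks1* (0.71) and *Rapgef6* (0.70). For *Fgf10* they were *Lsm14b* and *Rdx* (both 0.61), for *Hand2* *Ngfr* (0.61) and *Pea15a* (0.60) and for *Msx1* *Ptprf* (0.63) and *Odz4* (0.60). Among these 6 limb genes the closest pairs were *Hand2* with *Msx1* (0.46), *Tbx5* with *Hand2* (0.42) and *Tbx5* with *Msx1* (0.40), and *Fgf8* with *Fgf10* was lowest at −0.26.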

How the data were processed

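Whole-embryo 3SEQ libraries were trimmed, mapped by the authors with Bowtie2 against mm9, which is the B6 sequence, and against a version of it carrying Cast SNPs, and counted. Version numbers are not given in the sources used here. The authors deposited raw read counts per RefSeq gene without normalization, and allele votes as estimated counts, which need not be whole because a read covering several SNPs is split. They also deposited a genotype score per gene and N2 embryo (0.5 heterozygous, 1 homozygous), made with a hidden Markov model. Of 168 N2 columns 8 had no mother, litter or embryo in the labels and were not used, and 6 mapped embryos without genotypes entered only an alternative.

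Counts were divided by total reads on genes to give RPM. Autosomal genes were tested where their mean reached 1 RPM, with edgeR 4.0.16 (R 4.3.3, TMM, quasi-likelihood test, Benjamini-Hochberg adjustment over all genes tested), with DESeq2 1.42.0 and limma 3.58.1 as alternatives. SEs are the estimate over the root of F, and intervals of slopes are 95% normal intervals from it. Allele and own-genotype tests used Python 3.11.15 and scipy 1.17.1, with a minimum of 20 votes per cross. Votes were rounded for binomial intervals and tests. PEER was replaced by 15 principal components, and embryo sex was not used. The edgeR slope and litter-sum tests were tried on simulated data without lane or litter effects. So were the own-genotype, paired ASE, binomial parent-of-origin and BAF-against-somite tests. The interaction, the permutations, DESeq2, limma voom and the Mann-Whitney test were not. The 10 genes and the lists were chosen with earlier results of these data known. Named besides them are the up to 3 called genes of each list with the smallest N2 slope p, *Ptch1* and *Gli1*, and the 2 genes most like each member. Names of F1 calls, and the lane groups, were chosen after their values were seen. Litter mates share a mother and embryos share lanes, so p-values of slopes measure the spread between embryos, not between litters.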

Additional observations from a re-analysis of the deposited data

Results flagged for a closer look

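Of 32 groups of embryos in which a member's level or BAF was examined for a sample that stands apart, 2 held one, and about 1 in 20 groups is expected to by chance. The BAF of *Fgf8* was 0.432 in embryo 2-2 of Cast × B6 (22.01 B6 and 28.99 Cast votes), below the other 7 embryos of that cross at 0.494 to 0.545. The BAF of *Tbx5* was 0.683 in embryo 3-1 of B6 × Cast, the embryo of 63 somites (56 B6 and 26 Cast votes), above the other 7 at 0.505 to 0.583. The rule does not take counting error into account, and embryo 2-2 had the fewest *Fgf8* votes of its cross.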

How the results depend on the processing

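The alternatives covered normalization, filters, tools, litter, lane, flowcell, mother, covariates and minimums of votes, and those by lane were chosen after seeing the data. Of the 3 genes called for the N2 somite slope, 1 remained with litter fixed beside lane and 0 with F1 mothers only. With lanes K to N only, 0 were called, where 105 of 13198 genes were. There 1 of the 8 genes had an unadjusted p under 0.05, as did 1221 of the 13198. *Pitx1* was called, and *Shh* was not, in the Spearman test without lane or mother. For the F1 slope, leaving out 1 embryo gave 2 or 3 called genes. For the mother's genotype, 0 in the report, DESeq2 called 1 and litter sums without lanes K to N 2. Embryos as units gave 5, where 7747 of 12732 genes were called, and litter as a random block gave 3. Both of these fits held flowcell as a term. The Mann-Whitney test over embryos called 0 at 0.01, where *Hand2* had an adjusted p of 0.028. For the own genotype, 0 in the report, 1 gene was called with no principal components, 1 with 30 and 2 without lanes K to N. For ASE the sign-flip permutation called 1 in place of 0. The cause of these differences was not tested. Of 631 values of single genes under alternatives, 592 kept the side of the threshold, 21 lost a call and 18 gained one. Values uncalled in both settings count among the 592 whatever their sign, and 0 reversed as a called value. No paired analysis was possible because embryo numbers in the labels name litter mates and pair no embryos across groups. Depth limits *Grem1*, *Lmx1b* and *Shh* most, with medians of 1, 0.5 and 2 reads per N2 embryo.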
